A study of Mus musculus with 12 samples.

Results

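The genes described here are 9 receptors that position blood cells in tissues, namely the chemokine receptors Cxcr4, Cxcr5, Ccr7, Ccr6 and Ccr2, the sphingosine-1-phosphate receptor S1pr1, and the integrin chains Itga4, Itgb1 and Itgb7. They were taken as a named set and matched by symbol to the Ensembl identifiers of the gene count table. The matching used no measured value, but the set was chosen with earlier results of these data known. All 9 were found among the 55536 genes of the table, and all 9 were among the 20263 genes with enough reads to be tested.

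Chemokine receptors are G protein-coupled receptors that draw cells along gradients of secreted chemokines. CXCR4 binds CXCL12 and keeps hematopoietic cells and megakaryocytes (MKs) in the bone marrow (BM), whereas CXCR5 and CCR7 lead lymphocytes into the B cell follicles and T cell zones of the spleen and lymph nodes. S1PR1 senses sphingosine-1-phosphate, a lipid that is abundant in blood, and drives egress from tissues. Integrins are pairs of an alpha and a beta chain: the alpha 4 chain joins the beta 1 chain to bind VCAM-1 and fibronectin, or the beta 7 chain to bind MAdCAM-1, the addressin of gut vessels.

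RNA was sequenced from cells of Pf4-TdTomato mice on the C57BL/6 background, in which a Cre recombinase driven by the promoter of platelet factor 4 (Pf4) turns on the red reporter tdTomato from the Rosa26 locus. Every library held 300 cells sorted as CD45+, lineage-negative, tdTomato+, CD41+ and CD42b+, with CD138+ cells among those left out, so that all groups shared the same reporter and gate. The 4 groups, with 3 libraries each, paired either tissue (BM or spleen) with either treatment (saline or sepsis), and all were collected on day 5 after an injection of saline or of cecal slurry, a suspension of gut contents that causes polymicrobial sepsis. Mice of the study were male and female and 8 to 12 weeks old, and which mice gave which library was not stated. The reporter marks a cell in which the Pf4 promoter has been active at some time, and not the cell's present type.

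Total counts were between 7756762 and 27386184 per library, and levels are given as CPM (counts scaled to a fixed library total) after correction with TMM factors, which correct for differences in RNA composition. In the BM libraries the 12 MK and platelet markers summed to between 11800 and 47700 CPM, and in the spleen libraries they summed to between 1220 and 3530 CPM, with Pf4 itself at 476 to 2440 CPM in the spleen and 9610 to 30600 CPM in the BM. The 10 B cell markers summed to between 82.1 and 358 CPM in the BM and to between 3050 and 10300 CPM in the spleen, above the MK and platelet sum in each of the 6 spleen libraries. The 8 plasma cell markers summed to 1480 to 4700 CPM in the BM and 7760 to 80800 CPM in the spleen. Immunoglobulin and T cell receptor segment genes held 1.04% to 4.23% of counts in the BM and 13% to 30.1% in the spleen. Basophil markers reached 28700 CPM in replicate 2 of BM saline, above the MK and platelet sum there, and 4410 CPM in the spleen. Neutrophil markers reached 16000 CPM in replicate 3 of BM sepsis, again above that sum, and 18300 CPM in the spleen. The splenic cells carry the MK label of the sort in what follows, and because each library is a pool, a smaller share of cells with a transcript and less of it per cell cannot be told apart.

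Among the 9 receptors, differences were called between tissues and not between treatments. Only the tissue difference was also tested as an average. The effect of sepsis was tested within each tissue, with fewer libraries, so these calls do not rest on equal power. On the average of both treatments, 4 of the 9 genes had a lower level in the BM than in the spleen, namely Cxcr5, Ccr7, S1pr1 and Itga4, where 2.68% of all genes tested were called lower. None of the 9 was called higher in the BM, where 2.07% of all genes were. After saline alone 1 of the 9 was called lower in the BM (Cxcr5, against 0.725% of all genes), and after sepsis alone 2 of the 9 were (Cxcr5 and S1pr1, against 1.18%). The median log2 fold change of the 9, BM over spleen, was -0.88 after saline, -1.69 after sepsis and -1.28 on average, and that of all genes tested was -0.28, -0.18 and -0.13.

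**Figure D1:**
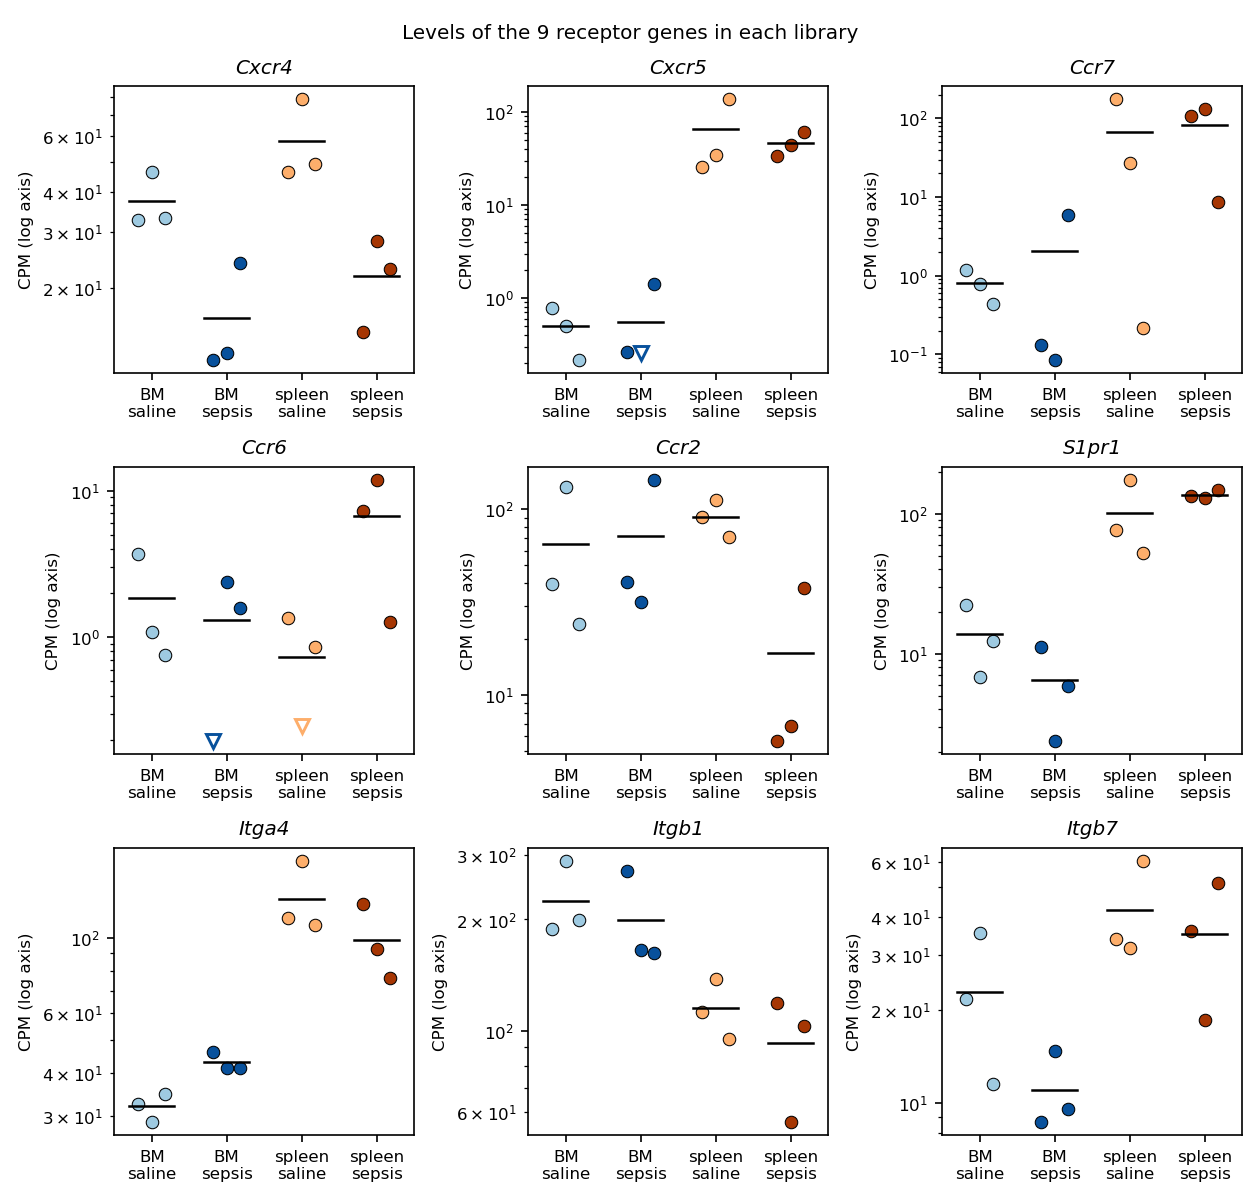
Level of each of the 9 receptor genes in CPM (log axis) in each of the 12 libraries, with 3 points per group and a bar at the group mean. Open triangles mark libraries with a count of 0, drawn at the level that 3 counts would give. Cxcr5, S1pr1 and Itga4 are lower in all 6 BM libraries than in any spleen library, and Itgb1 is higher in all 6.

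Cxcr5 (ENSMUSG00000047880, chr9:44511787-44561877 on GRCm38), the receptor for the follicular chemokine CXCL13, showed the largest difference between tissues of the 9. It was at 0.773, 0.497 and 0.215 CPM in the BM saline libraries, at 0.261, 0 and 1.4 CPM in the BM sepsis libraries, at 25.5, 34.5 and 138 CPM in the spleen saline libraries and at 33.7, 44.1 and 61.6 CPM in the spleen sepsis libraries. Every spleen library was above every BM library, and the BM values rested on 0 to 40 counts. The level was 130-fold lower in the BM than in the spleen after saline (-7.02 on the log2 scale, SE 1.34, edgeR adjusted p = 0.0105) and 78.8-fold lower after sepsis (-6.30, SE 1.29, edgeR adjusted p = 0.0130). The tissue difference after sepsis missed the threshold when the 6 libraries of that comparison were fitted alone (edgeR adjusted p = 0.0537). Each library was also left out in turn, once with the low-count filter set anew for the smaller group, which let 23354 to 26112 genes be tested, and once on the same 20263 genes, a choice made after seeing the data. Both Cxcr5 calls held in every fit of the first kind. On the same genes the call after saline was lost without any 1 of the BM saline libraries (edgeR adjusted p between 0.0574 and 0.0921), and the call after sepsis without replicate 1 or replicate 2 of BM sepsis (edgeR adjusted p = 0.0787 and 0.0525). Part of the gene's exons, 3.30%, overlaps Bcl9l on the opposite strand, and the libraries did not mark strand.

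Ccr7 (ENSMUSG00000037944, chr11:99144196-99155077), the receptor for CCL19 and CCL21 that leads T cells and dendritic cells into T cell zones, varied most among spleen libraries. It was at 1.2, 0.795 and 0.431 CPM after saline and 0.130, 0.085 and 5.89 CPM after sepsis in the BM, and at 176, 27.3 and 0.215 CPM after saline and 108, 132 and 8.54 CPM after sepsis in the spleen. The spleen saline library of replicate 3, with 2 counts, lay inside the BM range, so that the tissues overlapped. On the average of both treatments Ccr7 was 57.1-fold lower in the BM (log2 fold change -5.84, SE 1.25, edgeR adjusted p = 0.00768), and neither treatment alone passed the threshold (edgeR adjusted p = 0.111 after saline and 0.170 after sepsis). On the same genes Ccr7 was called after saline without replicate 3 of spleen saline (edgeR adjusted p = 0.0281) and after sepsis without replicate 3 of BM sepsis (edgeR adjusted p = 0.0395). The 8 T cell markers summed to 2190, 924 and 229 CPM in the spleen saline libraries and to 810, 838 and 115 CPM in the spleen sepsis libraries, so that replicate 3 of either group was lowest in the markers and in Ccr7. Cd3d, a chain of the T cell receptor complex, was at 833, 375 and 15 CPM and at 188, 104 and 4.08 CPM in the same 6 libraries, although CD3+ cells were left out by the gate. The NK cell and plasma cell markers were also lowest in replicate 3 of either spleen group. Their sums there were 287 and 46700 CPM after saline and 45 and 7760 CPM after sepsis. In the BM the T cell markers summed to 299, 256 and 195 CPM after saline, in the same order as Ccr7. After sepsis they summed to 413, 115 and 101 CPM in the BM, and replicate 3, lowest in these markers, was highest in Ccr7. The part of T cell transcripts, or of those of any other cell type, in the Ccr7 values was not tested.

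Ccr6 (ENSMUSG00000040899, chr17:8236043-8257141), the receptor for CCL20 found on B cells and some T cells, was the lowest of the 9 in the spleen saline libraries per kb of exon. It had 0 to 45 counts in the BM libraries, 0 to 10 counts in spleen saline and 13 to 141 counts in spleen sepsis. Its level was 3.69, 1.09 and 0.754 CPM in BM saline, 0, 2.38 and 1.58 CPM in BM sepsis, 1.35, 0 and 0.858 CPM in spleen saline and 7.25, 11.8 and 1.26 CPM in spleen sepsis. A count of 0 allows up to 3 counts, which is 0.105 to 0.405 CPM depending on the library. All 4 groups overlapped, and the interval of the average tissue difference ran from -3.97 to 2.94 on the log2 scale, so that differences of several fold in either direction could not be told from none.

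**Figure D2:**
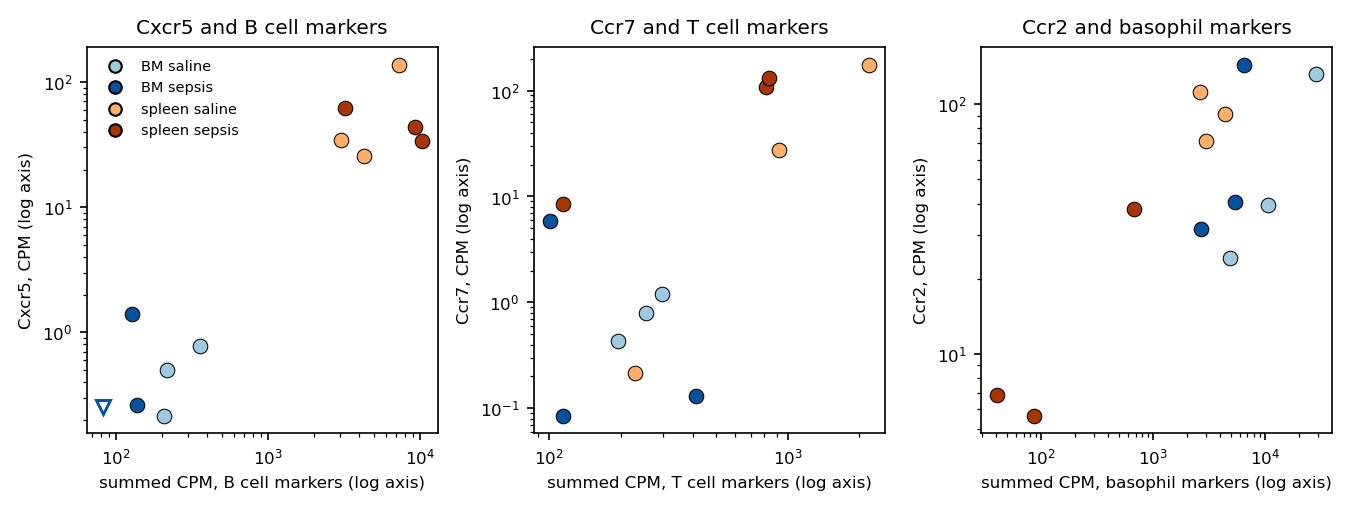
Level of Cxcr5, Ccr7 and Ccr2 (y axis, CPM, log scale) in each of the 12 libraries against the summed level of B cell, T cell and basophil markers (x axis, CPM, log scale). Points are libraries coloured by group, and the open triangle is a count of 0 drawn at the level of 3 counts. The spleen sepsis libraries with the lowest Ccr2 also have the lowest basophil sums, 87.4 and 40.6 CPM.

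Cxcr4 (ENSMUSG00000045382, chr1:128588199-128592293), the BM retention receptor, did not separate the tissues. It was at 32.7, 46.5 and 33.3 CPM in BM saline, 11.9, 12.5 and 24.0 CPM in BM sepsis, 46.5, 78.6 and 49.1 CPM in spleen saline and 14.6, 28.2 and 23.0 CPM in spleen sepsis. The BM and spleen libraries overlapped within either treatment, and the average tissue difference was -0.54 on the log2 scale (95% interval -1.58 to 0.51, edgeR adjusted p = 0.575). All 3 sepsis libraries were below all 3 saline libraries in the BM and again in the spleen, and none of the other 8 genes showed this in both tissues. The log2 fold change, sepsis over saline, was -1.22 (SE 0.71, edgeR adjusted p = 1.0) in the BM and -1.41 (SE 0.72, edgeR adjusted p = 0.387) in the spleen, and neither passed the threshold. Libraries of the groups did not overlap, with sepsis lower, for 4.16% of all genes in the BM and for 4.51% in the spleen. These shares are for each tissue alone, and the share of all genes with this in both tissues was not counted.

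Ccr2 (ENSMUSG00000049103, chr9:124101950-124113557), the receptor for CCL2 that brings monocytes out of the BM and is also found on basophils, was the other gene with separate treatment groups in the spleen. It was at 91.2, 112 and 71.1 CPM in spleen saline and at 5.65, 6.84 and 37.9 CPM in spleen sepsis, against 39.4, 132 and 24.1 CPM in BM saline and 40.6, 31.7 and 144 CPM in BM sepsis. All 3 spleen sepsis libraries lay below all 3 spleen saline libraries, and the BM groups overlapped. The fold change in the spleen was -2.44 on the log2 scale (SE 0.88, 95% interval -4.29 to -0.59, edgeR adjusted p = 0.382), which did not pass the threshold. After sepsis the difference between tissues was 2.10 (SE 0.87, edgeR adjusted p = 0.349), and without replicate 3 of spleen sepsis it was 3.56 (edgeR adjusted p = 0.0403), or 3.53 on the same genes (edgeR adjusted p = 0.0613). The basophil markers moved in the same spleen libraries: the 6 genes summed to between 2660 and 4410 CPM after saline and to between 40.6 and 678 CPM after sepsis. Mcpt8, a basophil protease, was at 1460, 858 and 1530 CPM and then at 38.0, 12.7 and 262 CPM, with replicate 3 highest after sepsis as for Ccr2. The monocyte and macrophage markers summed to between 450 and 1080 CPM in spleen saline and 223 to 434 CPM in spleen sepsis, also without overlap, although the gate left out CD11b+ and F4/80+ cells. The NK cell markers (287 to 1930 CPM, then 45 to 236 CPM) and the dendritic cell markers (39.9 to 144 CPM, then 3.01 to 24.7 CPM) fell without overlap too. So did the plasma cell markers (46700 to 80800 CPM, then 7760 to 35700 CPM). All of these sums except the basophil sum were lowest after sepsis in replicate 3, where Ccr2 was highest. The part of any of these cell types in the Ccr2 values was not tested.

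S1pr1 (ENSMUSG00000045092, chr3:115710433-115715072), the egress receptor, was lower in the BM in every library. It was at 22.1, 6.86 and 12.4 CPM in BM saline and 11.1, 2.38 and 5.89 CPM in BM sepsis, and at 76.5, 174 and 52.2 CPM in spleen saline and 133, 129 and 148 CPM in spleen sepsis. The lowest spleen library was above the highest BM library in both treatments. After sepsis the level was 21.1-fold lower in BM than in splenic MKs (log2 fold change -4.40, SE 0.80, edgeR adjusted p = 0.00510). After saline it was 7.32-fold lower (-2.87, SE 0.74), which missed the threshold (edgeR adjusted p = 0.0679) and passed it without replicate 3 of spleen saline in both kinds of fit (edgeR adjusted p = 0.0339 and 0.0379). Without replicate 3 of spleen sepsis it passed with the filter set anew (edgeR adjusted p = 0.0481) and missed on the same genes (0.0561). The test of the difference between these tissue effects gave -1.52 on the log2 scale (SE 0.99, edgeR adjusted p = 0.688), so the larger value after sepsis was not shown to differ from that after saline.

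Among the integrin chains, Itga4 was lower in the BM and Itgb1 leaned the other way. Itga4 (ENSMUSG00000027009, chr2:79255426-79333123) was at 32.6, 28.8 and 34.9 CPM in BM saline, 46.2, 41.6 and 41.6 CPM in BM sepsis, 114, 168 and 109 CPM in spleen saline and 126, 92.8 and 76.3 CPM in spleen sepsis. All 6 BM libraries were below all 6 spleen libraries, and the 3 BM sepsis libraries were above the 3 BM saline libraries (log2 fold change 0.43, SE 0.54, edgeR adjusted p = 1.0), as were the sepsis libraries for 4.79% of all genes. The average level was 3.04-fold lower in the BM (log2 fold change -1.61, SE 0.39, edgeR adjusted p = 0.0186). On the same genes this call was lost without any 1 of the 6 BM libraries (edgeR adjusted p between 0.0588 and 0.0893) and held without any 1 of the 6 spleen libraries, with a log2 fold change between -1.68 and -1.47. With the filter set anew it held only without replicate 3 of spleen saline or replicate 3 of spleen sepsis (edgeR adjusted p between 0.0143 and 0.161). With all 12 libraries and no filter the call was lost too (edgeR adjusted p = 0.162). Of the exons of Itga4, 8.04% overlap Cerkl on the opposite strand, and reads there could not be assigned to a strand.

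Itgb1 (ENSMUSG00000025809, chr8:128685654-128733200), the common beta 1 chain, was at 189, 288 and 199 CPM in BM saline and 271, 165 and 162 CPM in BM sepsis, and at 112, 138 and 94.8 CPM in spleen saline and 119, 56.5 and 103 CPM in spleen sepsis. All 6 BM libraries were above all 6 spleen libraries. The average difference was 1.04 on the log2 scale (SE 0.36, 95% interval 0.28 to 1.79), which did not pass the threshold (edgeR adjusted p = 0.113). On average over treatments, the libraries of the tissues did not overlap for 3 of the 9 genes with BM lower (Cxcr5, S1pr1 and Itga4) and 1 with BM higher (Itgb1), against 1.87% and 2.56% of all genes tested.

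Itgb7 (ENSMUSG00000001281, chr15:102215995-102231944), the beta 7 chain, was at 21.7, 35.4 and 11.5 CPM in BM saline, 8.67, 14.7 and 9.54 CPM in BM sepsis, 33.9, 31.6 and 60.6 CPM in spleen saline and 36.0, 18.6 and 51.3 CPM in spleen sepsis. Replicates 1 and 2 of BM saline lay inside the spleen range, and all 3 BM sepsis libraries lay below it. The average difference was -1.28 (SE 0.56, edgeR adjusted p = 0.218).

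The bases upstream of the annotated start are shown for the 3 integrin chains, which had average differences between tissues of -1.61 (Itga4), 1.04 (Itgb1) and -1.28 (Itgb7) on the log2 scale, with neither beta chain past the threshold. RefSeq promoter windows on GRCm38.p6 were on hand for 6 of the 9 genes (Cxcr4, Ccr6, Ccr2, Itga4, Itgb1 and Itgb7). The 250 bases before the RefSeq start were searched on both strands for a GATA motif (GATAA), a RUNX motif (TGTGGT), an ETS motif (CCGGAA) and the GC box bound by SP1 (GGGCGG). RefSeq starts can differ from the gene positions given above, which come from GENCODE. The Ccr2 window, chr9:124101933-124102182, lies mostly inside the position given for that gene, and the Itgb7 window overlaps its gene by a few bases. The letters of these motifs do not contain one another. Capitals mark the matches, read 5′ to 3′ on the strand of the gene, for Itga4 at chr2:79255176-79255425 (plus strand), Itgb1 at chr8:128685404-128685653 (plus strand) and Itgb7 at chr15:102231936-102232185 (minus strand).
Itga4: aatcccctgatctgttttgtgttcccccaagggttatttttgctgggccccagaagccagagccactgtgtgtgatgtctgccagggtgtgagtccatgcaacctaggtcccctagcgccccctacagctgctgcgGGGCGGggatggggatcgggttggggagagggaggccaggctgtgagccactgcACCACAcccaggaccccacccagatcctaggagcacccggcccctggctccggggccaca
Itgb1: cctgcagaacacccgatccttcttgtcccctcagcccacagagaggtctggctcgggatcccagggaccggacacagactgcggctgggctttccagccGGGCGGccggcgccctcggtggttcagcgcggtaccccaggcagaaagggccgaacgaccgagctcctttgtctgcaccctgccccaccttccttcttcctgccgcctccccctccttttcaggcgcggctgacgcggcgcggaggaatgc
Itgb7: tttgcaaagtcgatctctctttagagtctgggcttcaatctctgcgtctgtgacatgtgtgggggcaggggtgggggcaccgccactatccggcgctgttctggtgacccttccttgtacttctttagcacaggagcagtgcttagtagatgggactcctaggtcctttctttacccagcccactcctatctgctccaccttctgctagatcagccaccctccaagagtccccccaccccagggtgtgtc

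The Itga4 window holds a GC box at -114 and a RUNX motif on the opposite strand at -60, counted, as for all windows, from the RefSeq start. The Itgb1 window holds a GC box at -151, and the Itgb7 window holds none of these letters. Among 32851 windows of the same length, 32.7% held the GC box, 14% the RUNX motif, 22.6% the GATA motif and 12% the ETS motif. The Cxcr4 window held a GATA motif at -179 and GC boxes at -95, -75 and -50, all on the opposite strand, the Ccr2 window held a GATA motif on the opposite strand at -97, and 1 of the 2 Ccr6 windows held a GATA motif at -69. A match is a stretch of letters and was not tested for binding.

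**Figure D3:**
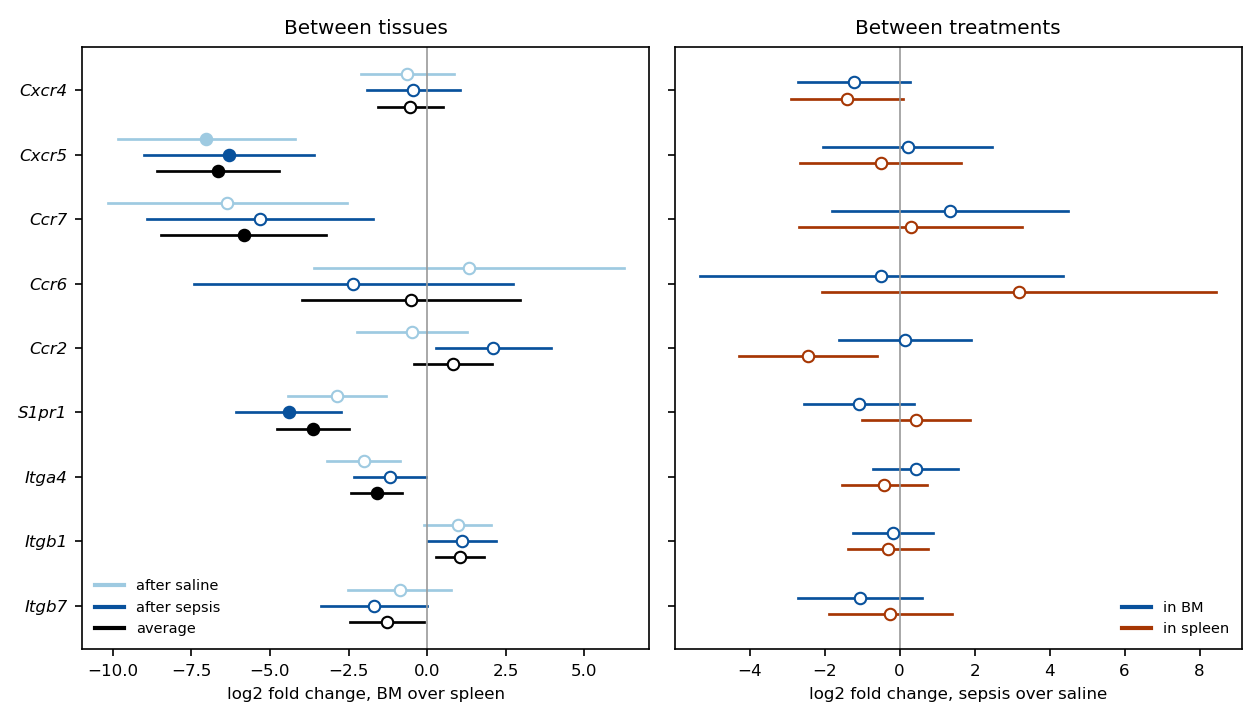
Log2 fold change of the 9 receptor genes with its 95% interval, on the left for BM over spleen (after saline, after sepsis and on average) and on the right for sepsis over saline (in BM and in spleen). Filled points have an edgeR adjusted p under 0.05. Filled points are seen for Cxcr5, Ccr7, S1pr1 and Itga4, all to the left of 0 and all between tissues.

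The balance between chains within each library was read as a ratio of levels per kb of exon, which removes the scaling between libraries. The exon length is that of all annotated exons of a gene, merged over its transcripts. Ratios and orders between genes depend on this length, and which transcripts were present was not tested. The ratio of Itgb7 to Itgb1 was 0.169, 0.181 and 0.0855 in BM saline, 0.0472, 0.131 and 0.0867 in BM sepsis, 0.447, 0.338 and 0.942 in spleen saline and 0.447, 0.485 and 0.737 in spleen sepsis. All 6 spleen ratios were above all 6 BM ratios, and none reached 1, so Itgb1 was the more abundant beta chain per kb in each library. The ratio of S1pr1 to Cxcr4 was 0.400, 0.0875 and 0.221 in BM saline, 0.558, 0.113 and 0.146 in BM sepsis, 0.977, 1.31 and 0.631 in spleen saline and 5.39, 2.72 and 3.83 in spleen sepsis. The 3 spleen sepsis libraries stood above the 3 spleen saline libraries, which stood above the 6 BM libraries. The mean log2 ratio was -2.34 in BM saline, -2.26 in BM sepsis, -0.10 in spleen saline and 1.94 in spleen sepsis. These ratios are descriptions of the libraries and were not tested.

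**Figure D4:**
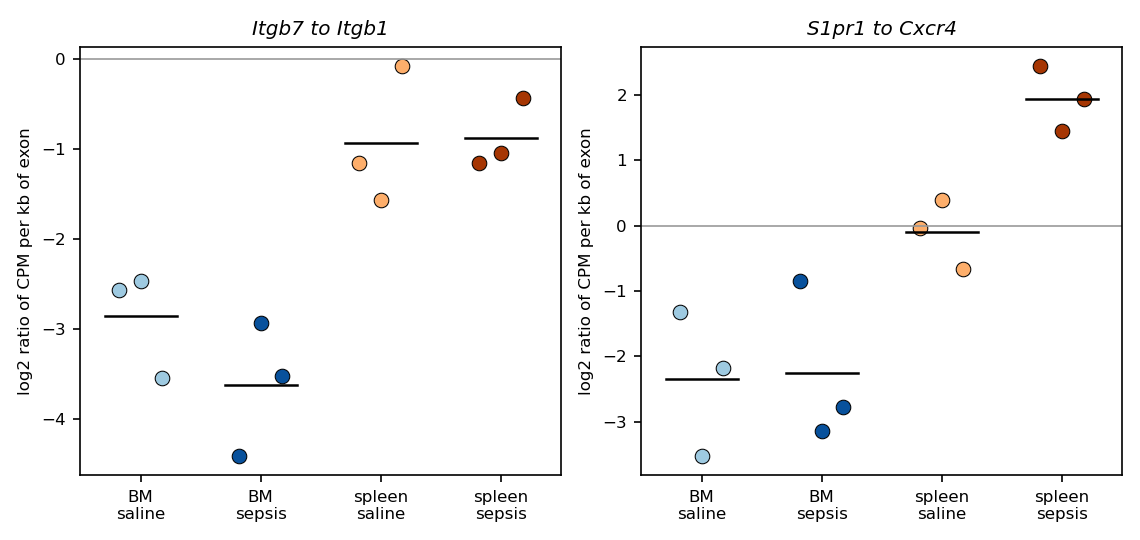
Log2 ratio of levels per kb of exon (y axis) of Itgb7 to Itgb1 and of S1pr1 to Cxcr4 in each library, with 3 points per group and a bar at the group mean. The spleen libraries lie above the BM libraries in both panels, and the 3 spleen sepsis libraries have the highest ratios of S1pr1 to Cxcr4, from 2.72 to 5.39 before the log.

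The order of the 9 genes per kb of exon also differed between tissues. In the BM, Itgb1 was highest, at 55.2 CPM per kb after saline and 48.9 CPM per kb after sepsis, and its lowest library was above the highest library of the next gene. Cxcr4 followed after saline at 20.7 CPM per kb and Ccr2 after sepsis at 10.7 CPM per kb, and Cxcr5 was last in both groups at 0.149 and 0.166 CPM per kb. In spleen saline, Ccr7 (34.2 CPM per kb), S1pr1 (33.1), Cxcr4 (32.1) and Itgb1 (28.1) led, with ranges that overlapped, and Ccr6 was last at 0.317 CPM per kb. In spleen sepsis, S1pr1 (44.9 CPM per kb) and Ccr7 (41.9) led with overlapping ranges, and Ccr2 was last at 2.49 CPM per kb. Itga4 and Itgb7 held middle or low places in each of the 4 groups.

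None of the 9 genes passed the threshold between sepsis and saline in the BM, where 0% of all genes did, in the spleen, where 0.158% did, or in the test of whether the effect of sepsis differed between tissues, where 0% did. In the BM 717 genes had an unadjusted p under 0.05, and DESeq2 called 220 genes. In the spleen 2649 genes did, and DESeq2 called 931. In that interaction test 1556 genes had an unadjusted p under 0.05 and DESeq2 called 470. Ccr2 had the lowest p of the 9 in that test, at 2.59 on the log2 scale (SE 1.2, edgeR adjusted p = 0.641). Ccr6 had the largest positive value in the spleen, 3.19 (SE 2.51, edgeR adjusted p = 0.657), from 2 libraries at 7.25 and 11.8 CPM and 1 at 1.26 CPM. The 95% intervals of the fold change in the spleen ran from -1.01 to 1.89 for S1pr1, from -1.53 to 0.72 for Itga4 and from -1.37 to 0.75 for Itgb1, so a 2-fold lower level in sepsis lay inside each interval.

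Other genes of the same pathways were read from lists, on the average of both treatments. In that comparison 2.68% of all genes tested were called lower in the BM and 2.07% higher, the shares beside which each list count below stands. Of the 18 other chemokine receptors tested of 19 listed, 2 were lower in the BM and none higher. Gpr183, the oxysterol receptor that guides B cells to the edge of follicles, was lower (log2 fold change -2.66, SE 0.55, edgeR adjusted p = 0.00629), and so was Ackr3, the scavenger of CXCL12, at -5.61 (SE 1.53, edgeR adjusted p = 0.0392). Ackr3 had 0 to 37 counts in the BM libraries, and its call was lost in both kinds of fit on leaving out any of 5 libraries (replicates 1 and 2 of BM saline, replicate 1 of BM sepsis, replicate 2 of spleen saline and replicate 2 of spleen sepsis), and on the same genes also without replicate 3 of BM sepsis (highest edgeR adjusted p 0.160). Cxcr2, the receptor that mobilizes neutrophils, was at 0.107 to 30.2 CPM in the spleen and 1.70 to 6.87 CPM in the BM, and Cxcr3, a receptor of effector lymphocytes, at 0 to 45.3 CPM and 0 to 3.02 CPM, and neither passed the threshold.

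Of 11 genes for ligands of these receptors 4 had enough reads to be tested, and none passed the threshold. Fn1, which encodes fibronectin, was at 2.66, 13.8 and 47.4 CPM in BM saline, 0.456, 9.18 and 11.5 CPM in BM sepsis, 13.1, 53.7 and 41.2 CPM in spleen saline and 0.0514, 32.5 and 18.9 CPM in spleen sepsis, and the groups overlapped. Vcam1 was at 0.398 to 11.6 CPM in the BM and 0 to 70.8 CPM in the spleen, with its highest value in replicate 3 of spleen saline. Ccl2, the ligand of CCR2, was at 0 to 7.06 CPM in the BM and at 0 in all 6 spleen libraries (edgeR adjusted p = 0.0703 on the average of both treatments). Ccl19, Ccl21a, Ccl7 and Madcam1 were listed at 0 in every library, and Ccl19 and Ccl21a have near-identical copies in the genome that can take or lose reads in counting. Cxcl12, the ligand of CXCR4, was at 3.01, 0 and 0 CPM in BM saline and at 8.08, 9.52 and 7.54 CPM in BM sepsis. In the spleen it was at 0, 7.18 and 0 CPM after saline and at 0 in each library after sepsis. Cxcl13, the ligand of CXCR5, was at no more than 0.680 CPM.

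In the sphingosine-1-phosphate pathway, 3 of 11 genes tested were lower in the BM and 1 was higher. Klf2, the transcription factor that drives S1pr1 transcription in lymphocytes, was at 1.93 to 15 CPM in the BM and 169 to 273 CPM in the spleen (log2 fold change -4.87, SE 0.56, edgeR adjusted p = 1.85e-05), and it passed the threshold after saline and after sepsis as well. Foxo1, which lies upstream of Klf2 and of Ccr7 in T cells, was lower (-3.21, SE 0.51, edgeR adjusted p = 0.000540). Cd69, a membrane protein that pulls S1PR1 from the surface, was lower (-2.17, SE 0.47, edgeR adjusted p = 0.00879), with replicate 1 of spleen saline at 816 CPM, without which the call was lost with the filter set anew (edgeR adjusted p = 0.0565) and held on the same genes (0.0350). Mfsd2b, the exporter that releases sphingosine-1-phosphate from red cells and platelets, went the other way: it was at 131 to 260 CPM in the BM and 1.57 to 43.7 CPM in the spleen (3.85, SE 0.61, edgeR adjusted p = 0.000587). S1pr4, another receptor of the lipid on lymphocytes, was at -2.25 (SE 0.78, edgeR adjusted p = 0.114).

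Of the 15 other integrin chains tested, 3 were higher in the BM and none lower. These were Itga6, the laminin receptor chain (log2 fold change 1.95, SE 0.46, edgeR adjusted p = 0.0163), Itgb3, the beta chain of the platelet fibrinogen receptor (2.06, SE 0.54, edgeR adjusted p = 0.0323), and Itga5, the fibronectin receptor chain (5.85, SE 1.58, edgeR adjusted p = 0.0405). Itga5 was at 0 in all 3 spleen saline libraries and its call was lost in 7 of the 12 fits that left out a library with the filter set anew (replicate 3 of BM saline, each BM sepsis library, replicates 2 and 3 of spleen saline and replicate 3 of spleen sepsis). On the same genes it held only without replicate 1 of BM saline (highest edgeR adjusted p 0.101). Itgb3 held in each fit with the filter set anew, and on the same genes its call was lost without replicate 1 or 2 of BM saline, replicate 1 of BM sepsis, or replicate 1 or 2 of either spleen group (highest edgeR adjusted p 0.0913). The lymphocyte chain Itgal was at -1.37 (SE 0.43, edgeR adjusted p = 0.0813) and its partner Itgb2 at 0.30 (SE 0.48, edgeR adjusted p = 0.774). Itga4 was the only integrin chain of the 18 tested here, members included, that was called lower in the BM.

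Of the 10 genes tested that switch integrins to their active state, 3 were called higher in the BM and none lower. The fold change was positive for 6 of them and negative for 4, with a median of 0.20 on the log2 scale beside -0.13 for all genes. Rap1b, the small GTPase of platelets, was at 2620 to 4610 CPM in the BM and 355 to 1260 CPM in the spleen (log2 fold change 2.20, SE 0.32, edgeR adjusted p = 0.000230). Fermt3, which encodes kindlin-3, was higher as well (1.87, SE 0.44, edgeR adjusted p = 0.0161), as was Tln1, which encodes talin (1.70, SE 0.44, edgeR adjusted p = 0.0276). Without replicate 1 of BM sepsis neither Fermt3 nor Tln1 was called in either kind of fit (highest edgeR adjusted p 0.0657 and 0.115), nor was Tln1 without replicate 2 of spleen sepsis. On the same genes the Tln1 call was also lost without replicate 1 or 2 of spleen saline or replicate 1 of spleen sepsis (edgeR adjusted p between 0.0522 and 0.0621). Rasgrp2, which activates RAP1, was at 0.40 (SE 0.42, edgeR adjusted p = 0.627). Ilk was listed at 0 in every library although most cells use it, so it gives no value here.

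Of the 12 genes of selectins and their ligands, 2 were higher in the BM. Selp, the selectin of platelet granules, was higher (log2 fold change 3.78, SE 0.94, edgeR adjusted p = 0.0216). Cd34 was higher (6.43, SE 1.55, edgeR adjusted p = 0.0177), with 0 counts in 4 of 6 spleen libraries and its call lost in both kinds of fit without replicate 2 of BM sepsis (edgeR adjusted p = 0.0684 and 0.0800), and Tpst1, an enzyme that sulfates the tyrosines with which receptors bind chemokines, was lower (-5.62, SE 0.93, edgeR adjusted p = 0.000872). Of the 15 genes of receptor signaling, 4 were lower in the BM and none higher: Tpst1 again, Dock2 (-1.95, SE 0.44, edgeR adjusted p = 0.0105), Coro1a (-1.85, SE 0.37, edgeR adjusted p = 0.00484) and Rac2 (-1.73, SE 0.37, edgeR adjusted p = 0.00752), which steer the actin skeleton of migrating leukocytes. Dock2 was not called without replicate 3 of BM saline (edgeR adjusted p up to 0.0612) nor, with the filter set anew, without replicate 1 of BM sepsis. The G protein subunits Gnai2 and Gnai3 and the receptor kinase Grk2 did not pass the threshold.

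**Figure D5:**
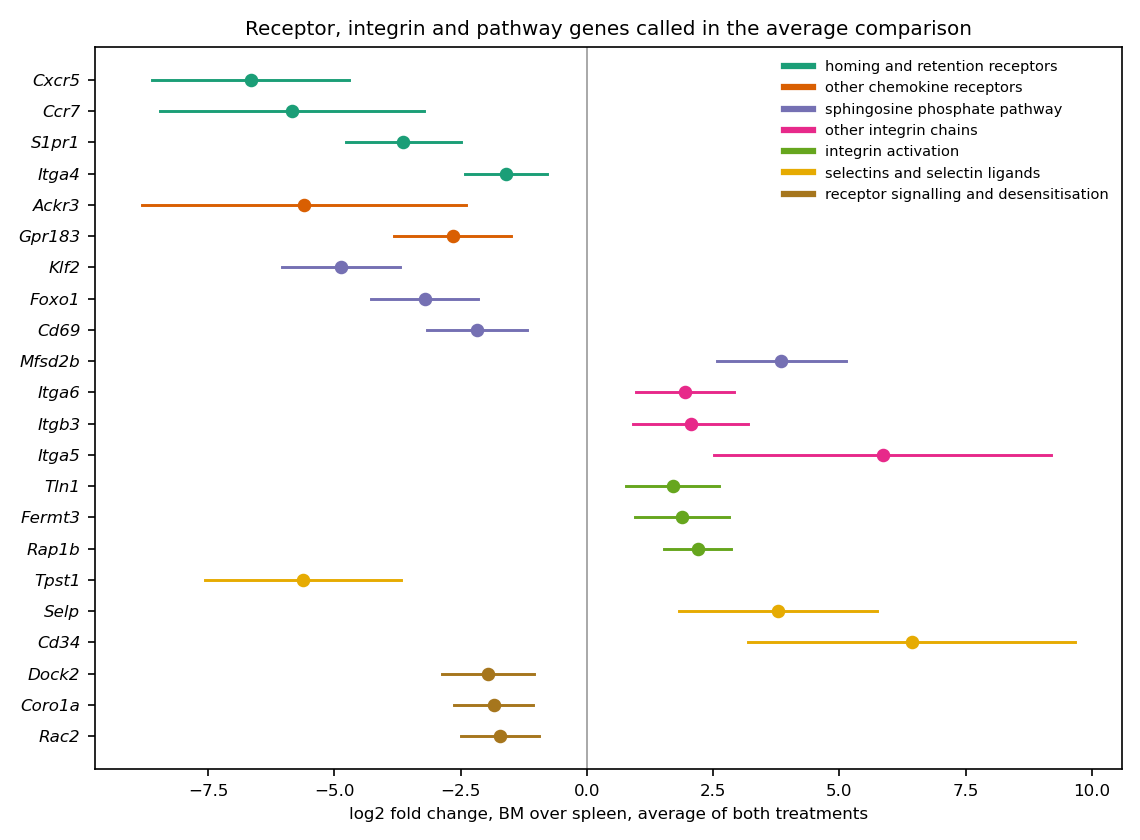
Log2 fold change, BM over spleen on the average of both treatments, with its 95% interval, for the receptor and pathway genes reported here with an edgeR adjusted p under 0.05, coloured by list (Tpst1 is in 2 lists and drawn once). Receptor, sphingosine-1-phosphate and signaling genes other than Mfsd2b lie to the left of 0, and the integrin chains other than Itga4 and the activation genes lie to the right.

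Genes with the most similar pattern to each receptor were found by Pearson correlation of log2 CPM over the 12 libraries, among 20107 genes. The libraries share tissue and composition, so these values describe the pattern only. Cxcr5 was most like H2-Eb1 (r = 0.983), an MHC class II chain, Zc3h12d (0.972) and Spib (0.965), a B cell transcription factor, and 90 genes had r over 0.9 with it. S1pr1 was most like Dennd1c (0.970), Ablim1 (0.956) and Bank1 (0.955), a B cell scaffold, with 49 genes over 0.9. For Itga4 the nearest genes were 1810046K07Rik (0.942), Bcl2a1b (0.935) and Hes1 (0.935). Itgb1 was nearest to Plek (0.931), the main protein kinase C substrate of platelets, and Clec1b (0.929), the platelet receptor CLEC-2, followed by Ifi47 (0.909). Nearest values for other members were 0.936 for Ccr2 (Gm46224), 0.923 for Itgb7 (Kmt2e), 0.907 for Ccr7 (Hspa12a) and 0.896 for Cxcr4 (Epha6).

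Between the members themselves, Cxcr5 and S1pr1 were most alike (r = 0.898), followed by Cxcr5 with Itga4 (0.870) and S1pr1 with Itga4 (0.842), and Cxcr5 and Itgb1 were most opposed (-0.808). Among marker lists, all 10 B cell, 6 of 8 plasma cell and 5 of 8 T cell markers were called lower in the BM. In the direction in which Itgb1 lay, 6 of 12 MK and platelet markers and 3 of 6 basophil markers were called higher. So were 2 of 8 neutrophil markers, 1 of 5 NK cell markers tested and 1 of 6 erythroid markers. No monocyte and macrophage or dendritic cell marker was called in either direction. Of all genes tested, 2.68% were called lower and 2.07% higher. No B cell marker was at 0 in all 3 libraries of any group, and Cd79a, a chain of the B cell receptor complex, was at 125 to 2830 CPM in the spleen and 6.12 to 85 CPM in the BM. The gate left out B220+ cells. The B cell markers summed to 4330, 3050 and 7280 CPM in the spleen saline libraries. Replicate 3 of that group was also highest in Cxcr5, but lowest in S1pr1 and Itga4. In the spleen sepsis libraries they summed to 10300, 9360 and 3240 CPM. Replicate 3 of that group was also lowest in Itga4, but highest in Cxcr5 and S1pr1. The part of B cell transcripts in the levels of Cxcr5, S1pr1 and Itga4 was not tested.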

How the data were processed

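RNA was measured in 12 libraries of 300 sorted cells, in 4 groups of 3. Reverse transcription used SMART-Seq HT reagents and sequencing libraries were made with Nextera XT. The authors deposited raw counts of reads per gene, whole numbers for 55536 genes with no normalization. Per the labels, STAR 2.7.2b, R 3.6.1 and DESeq2 1.26 and the build GRCm38 were used in processing; how reads were counted, and with which annotation, is not given in the sources used here. All 55536 identifiers were found in GENCODE M21 on GRCm38, from which positions and exon lengths were taken.

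The members and the lists of pathway and marker genes were chosen with earlier results of these data known. Each column was matched to its group and replicate by its label, and replicates are 3 independent samples per group in the study's description.

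The test was that of edgeR 4.0.16 in R 4.3.3 (filterByExpr with a minimum count of 10, TMM factors, quasi-likelihood F test, 1 mean per group, 8 residual and 11.1 prior degrees of freedom, Benjamini-Hochberg adjustment over 20263 genes, threshold 0.05, two-sided). The SE is the log2 fold change divided by the square root of F, and intervals are at 95%. Depth was 7756762 to 27386184 counts per library. With a common dispersion of 2.05 (biological coefficient of variation 143%), most of the error came from differences among libraries. Zero counts allow up to 3 counts, a limit for counting error only. Named genes were the 9 members, the first 3 and each called gene of a pathway list, the first 2 of a marker list and the 3 genes most like each member (log2 CPM, prior count 2, immunoglobulin and T cell receptor segments left out). Some genes that this rule names are not reported here. Alternatives were RLE factors, library size alone, no filter, a stricter filter of 10 counts in 6 libraries, DESeq2 1.42.0, limma 3.58.1 (voom with quality weights), the libraries of a comparison alone, a replicate block, removal of segment genes, thinning to 7756762 counts and leaving out each library, with the filter set anew or, an alternative added after seeing the data, on the same genes. The steps were tested on simulated data. Motifs and figures used Python 3.11.15, pandas 2.3.3 and matplotlib 3.10.9.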

Additional observations from a re-analysis of the deposited data

How the results depend on the processing

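The spread between libraries limits these results more than depth: with 3 libraries a group and a biological coefficient of variation of 143%, low levels in the BM (0 to 40 counts for Cxcr5 and 0 to 45 for Ccr6) carry wide intervals. The number of the 9 receptors called after saline, 1, was 3 with RLE size factors, 2 with no filter on low counts, 3 with the stricter filter, 4 with DESeq2 and 0 to 3 on leaving out each library. After sepsis the number, 2, was 1 with the 6 libraries of the comparison alone, 3 with no filter, DESeq2 or limma-voom, and 1 to 3 on leaving out each library. On the average of both treatments the number stayed within 1.5 times of 4, and it stayed at 0 for sepsis over saline and for the interaction in every alternative run.

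Fits without a library were run with the filter set anew, which follows the smallest group, and, chosen after seeing the data, on the same 20263 genes. A call lost in the first kind alone also carries the change of filter. Cxcr5 kept its calls other than after sepsis with the 6 libraries alone and in 5 of the fits on the same genes that the report names. Ccr7 was called after saline with no filter, with DESeq2, in 8 of the 12 fits with the filter set anew and in 1 on the same genes, and after sepsis with no filter, DESeq2 and limma-voom (lowest adjusted p 0.00066), in 4 of the 12 and in 1. S1pr1 after saline had adjusted p between 0.0118 and 0.396 over its alternatives and fits without a library. Itga4 after saline was called without replicate 3 of spleen sepsis on the same genes (adjusted p = 0.0384). The Itga4 call on average was lost with library size alone and with no filter (highest adjusted p 0.162), and Itgb1 was called with library size alone (log2 fold change 1.53, adjusted p = 0.0103). Among pathway genes, Itgb3 and Tln1 were not called with RLE size factors or DESeq2, Itga5 with RLE size factors, Itga6 with DESeq2, and Ackr3 and Dock2 with library size alone. The cause was not tested.

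Values that changed sign passed no threshold. With library size alone Cxcr4 between tissues after sepsis was 0.073 and Ccr6 on average 0.21. With limma-voom, sepsis over saline in the BM was -0.79 for Cxcr5 and -0.50 for Ccr7, and the interaction -0.44 for Cxcr5 and -3.62 for Ccr7. Leaving out libraries gave, for sepsis in the BM, -1.77 to 0.80 for Cxcr5, -2.77 to 1.94 for Ccr7, -1.18 to 0.54 for Ccr6, -0.84 to 1.22 for Ccr2 and -0.46 to 0.070 for Itgb1. In the spleen it gave -0.89 to 0.66 for Cxcr5, -0.29 to 2.75 for Ccr7, -0.53 to 0.0048 for Itgb1 and -0.62 to 0.14 for Itgb7, and for the interaction -0.24 to 0.45 for Cxcr4, -1.27 to 1.33 for Cxcr5, -3.08 to 1.66 for Ccr7 and -0.17 to 0.35 for Itgb1.

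Libraries with the same replicate number did not deviate together (18 correlations between -0.06 and 0.04). With so wide a spread among libraries, this cannot show whether libraries with the same number came from the same mouse. The replicate block called 288 genes after saline, 401 after sepsis and 955 on average, changed the call of no member, and gave -0.64 for Cxcr5 and -0.14 for Ccr2 for sepsis in the BM and -0.51 for Cxcr5 in the interaction.

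Over all genes, the average comparison called 962, of which 56.4% were lower in the BM. This was 66.0% with RLE size factors and 28.0% of 1515 genes with library size alone, while the median log2 fold change of all genes moved from -0.13 to -0.32 and 0.38. DESeq2 called 2178 genes on average and limma-voom 1517, of which 46.1% were lower. After saline 253 genes were called with TMM, 529 with no filter and 1053 with DESeq2, and 58.1% lower became 69.7% with RLE and 30.3% with library size alone. After sepsis 361 were called, against 595, 1248 and, with limma-voom, 724, and 66.5% lower became 43.7% with library size alone. In the spleen, sepsis over saline called 32 genes, 187 with no filter, 931 with DESeq2, 0 with limma-voom, where 1492 had an unadjusted p under 0.05, and 0 with its 6 libraries alone, where 612 did.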
